A study of Rattus norvegicus with 17 samples.

Results

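Baseline gene expression of the healthy middle cerebral artery (MCA) was described from the 6 control MCAs among the 17 arteries of the series, chosen by their group label alone. The arteries came from non-operated female Wistar rats of 12 weeks and about 250 g, none of them in proestrus, the phase of the cycle with high estrogen. The whole series studied transient occlusion of this artery, and no value from an operated rat is used here. Each control artery came from a separate animal and was measured on 1 rat gene 2.0 ST array without pooling. The distal part of both MCAs of a rat was dissected and cleaned of connective tissue and blood, and the labels do not say which side a control array holds. Outbred Wistar rats also differ in genotype, so animal, dissection and array cannot be told apart as sources of spread. The arrays are called by their rat number, F36, F21, F4, F16, F22 and F26.

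The MCA is a muscular artery on the surface of the brain. Its wall has an endothelial lining, a media of contractile smooth muscle cells wound in elastic and collagenous matrix, and a thin adventitia that lies in the leptomeninges, the fibroblast-like membranes bathed by cerebrospinal fluid. Smooth muscle tone is set by calcium entry and release, by potassium channels that oppose calcium entry, and by receptors for nerve-released and circulating vasoactive agents. Arteries also carry a circadian clock, a loop in which Bmal1 and Clock switch on Per, Cry and Nr1d1 genes whose products then repress them.

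Values are log2 signals, so a step of 1.00 is a fold of 2.0. Levels of 13368 genes were ranked by their mean over the 6 arrays, from 3.55 to 13.36, with a median of 7.40. The brightest 25% of genes started at 8.50 and the brightest 10% at 9.48. Signals of different genes also carry the binding strength of their probes, so these are ranks of array signal per gene and not of molecules per cell. All cells of the distal artery segment were measured together, so fewer cells of a type and less RNA per cell cannot be told apart. Array medians lay between 7.34 and 7.47, and pairs of arrays correlated with r from 0.954 to 0.991 across genes. All means below are given with the SD over 6 arrays.

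The brightest genes of the healthy artery were those of the cytoskeleton, the matrix and the smooth muscle contractile apparatus. Rtn4, which encodes a membrane protein of the endoplasmic reticulum, ranked highest at 13.36 ± 0.10 on its brightest probe set, and at 11.19 as the mean of its probe sets. Ptgds, the prostaglandin D synthase made in quantity by the leptomeninges, followed at 13.35 ± 0.33. Vim, the intermediate filament of mesenchymal cells, stood at 13.33 ± 0.04, and Igfbp7, a secreted binding protein of the vessel wall, at 13.32 ± 0.12. Tagln, the actin-binding calponin relative that marks smooth muscle, ranked 7 with 13.15 on its lowest array, a median of 13.27 and 13.31 on its highest. Myh11, the smooth muscle myosin heavy chain, ranked 12 with 12.81, 12.95 and 13.08 in the same order. The 6 arrays thus held these smooth muscle genes within a narrow band. Of 8 smooth muscle markers listed, 6 were measured, and Acta2 and Cnn1 were not among the genes ranked. Of the 25 brightest genes, 7 belonged to the smooth muscle filament list, 2 others were the actins Actb at 13.16 ± 0.11 and Actg1 at 12.44 ± 0.08, and 5 were matrix genes. The ribosomal protein gene Rps29 (13.15 ± 0.04) and the elongation factor Eef1a1 (13.16 ± 0.05) stood beside them. Ptgds and Clu, the chaperone clusterin, were the members with the widest spread, as the plot of the brightest genes shows. Ptgds lay between 12.92 and 13.67 and Clu between 11.77 and 12.97. Gapdh, a common reference gene, ranked 29 at 12.34 ± 0.07.

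**Figure D1:**
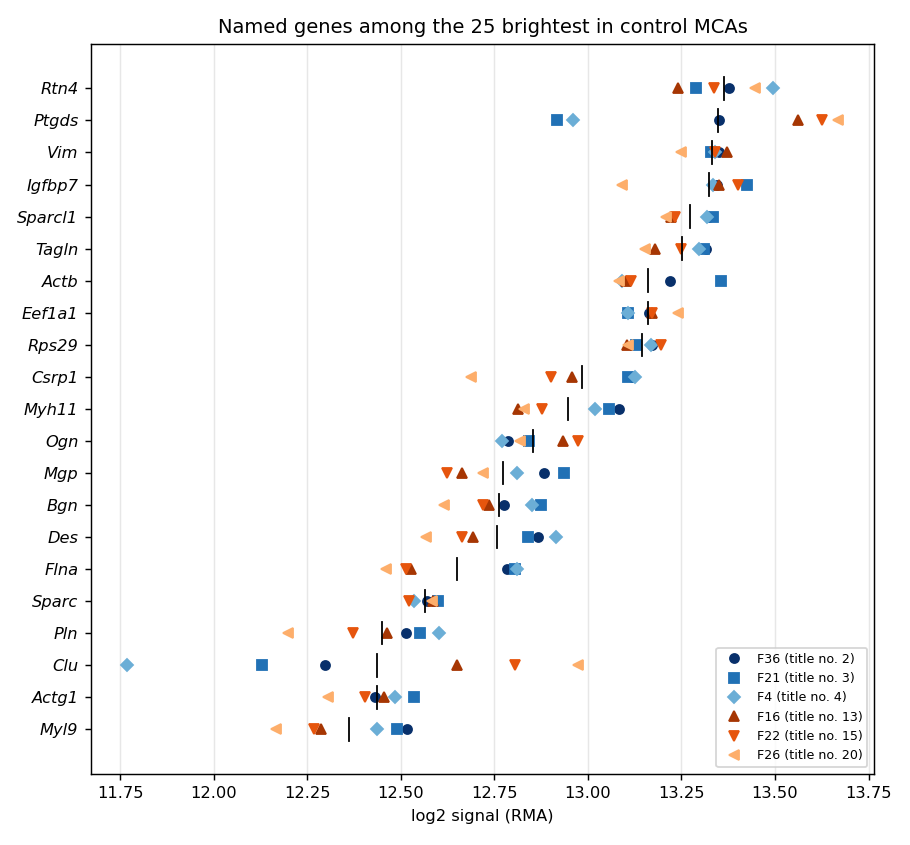
The 21 genes named here among the 25 brightest, with the log2 signal of each of the 6 control arrays (symbols) and their mean (black tick). Most genes span well under 1 log2 unit, and Ptgds (12.92 to 13.67) and Clu (11.77 to 12.97) are the widest.

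Contractile genes were brighter as a group than the matrix, channel and receptor genes. Of 62 genes in 3 lists, 52 lay in the brightest 25% of all genes and 45 in the brightest 10%, and their median level was 10.35 against 7.40 for all genes and 10.52 for 29 ribosomal protein genes. Among 26 filament genes the median was 11.28 and 21 lay in the brightest 10%. Csrp1, a LIM protein that binds actinin, stood at 12.98 ± 0.17, the intermediate filament desmin (Des) at 12.76 ± 0.14, filamin A (Flna) at 12.65 ± 0.17 and the regulatory light chain Myl9 at 12.36 ± 0.14. Smtn and Lmod1, actin-associated proteins of differentiated smooth muscle, stood at 11.41 ± 0.27 and 10.32 ± 0.31. The lowest filament gene was Filip1l, with 5.70 ± 0.16.

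The regulators of contraction had a median level of 10.50, with 16 of 20 in the brightest 10%. Rhoa, the small GTPase of calcium sensitization, led at 12.02 ± 0.13. Mylk, the kinase that phosphorylates the myosin light chain, stood at 11.19 ± 0.10, and Ppp1r12a, the targeting subunit of the phosphatase that reverses this step, at 11.17 ± 0.23. Pde3a, a phosphodiesterase that degrades cyclic AMP, stood at 11.29 ± 0.31. Both arms of light chain phosphorylation were thus in the brightest 10% of genes. Of the signalling brakes Rgs5 and Rgs2, Rgs5 had 9.63 ± 0.46 and Rgs2 had 8.53 ± 0.36. Among 16 transcription factors of smooth muscle, the Notch target Hey2 (10.40 ± 0.19), Mef2c (10.34 ± 0.21) and the coactivator myocardin (Myocd, 9.81 ± 0.37) were bright, and Hey1 was the lowest at 6.78 ± 0.16.

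Matrix genes came next, with 68 of 102 in the brightest 25% and a median of 9.53. The proteoglycan and matricellular list was the brightest of them, with a median of 10.42 over 21 genes. It was led by Sparcl1 (13.27 ± 0.06), a relative of the collagen chaperone Sparc, and by osteoglycin (Ogn, 12.85 ± 0.08). Mgp, the inhibitor of vascular calcification, stood at 12.77 ± 0.12, biglycan (Bgn) at 12.76 ± 0.09 and decorin (Dcn) at 12.18 ± 0.15. Postn, which encodes periostin, was at the other end with 5.57 ± 0.59.

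Fibrillar collagens led the collagen list, with Col3a1 at 11.46 on its lowest array, a median of 11.70 and 12.11 on its highest. Col1a2 had 11.60 ± 0.14 and Col1a1 had 11.40 ± 0.21, and the lowest of the 21 collagens was Col5a3 at 6.71 ± 0.29. Elastin (Eln) ranged from 10.99 over a median of 11.29 to 11.76, and its cross-linking enzymes Lox (10.81 ± 0.31) and Loxl1 (10.38 ± 0.12) were also in the brightest 10%. In the basement membrane list, Sparc had 12.57 ± 0.03, the laminin chains Lamb2 and Lamc1 had 11.45 ± 0.19 and 10.82 ± 0.16, and nidogen (Nid1) had 11.36 ± 0.15. The protease inhibitors Timp3 (12.20 ± 0.15) and Cst3 (12.11 ± 0.23) and the plasminogen activator Plat (11.78 ± 0.05) were the brightest of the proteolysis list. The brightest integrins were the shared beta chain Itgb1 at 11.92 ± 0.15 and the smooth muscle alpha chains Itga8 at 11.40 ± 0.25 and Itga1 at 10.93 ± 0.27.

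Ion channels as a whole sat at the middle of all genes, with a median of 7.41 over 94 genes, 31 in the brightest 25% and 28 in the lowest 25%. A few members stood far above the rest. Kcnmb1, the smooth muscle beta subunit of the large-conductance calcium-activated potassium channel, ranked 111, with 10.76 on its lowest array, a median of 11.62 and 11.71 on its highest. Its pore subunit Kcnma1 ranked 497, with 9.78, 10.46 and 10.78. The small- and intermediate-conductance relatives Kcnn3 (7.56 ± 0.13) and Kcnn4 (7.13 ± 0.15), which work in endothelium, were near the median of all genes. F26 was the lowest of the 6 arrays for each of these 4 genes.

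Among 15 voltage-gated potassium channel genes, 9 lay in the lowest 25%. The auxiliary subunits Kcnab1 (8.98 ± 0.90) and Kcne4 (8.78 ± 0.31) were brighter than the brightest pore subunit, Kcna2 (8.05 ± 0.23), followed by Kcna5 (7.15 ± 0.52). Of the channels that set resting potential, the background potassium channel Kcnk2 had 9.21 ± 0.45, the inward rectifier Kcnj12 had 7.75 ± 0.13, and the KATP pair Abcc9 and Kcnj8 had 7.52 ± 0.23 and 6.96 ± 0.23. Kcnj13, another inward rectifier, had a mean of 8.93 with an SD of 1.46, the largest of all the channels listed.

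For calcium entry, the pore of the L-type channel, Cacna1c, lay between 8.22 and 9.20 with a median of 8.85, and its auxiliary subunits Cacnb2 and Cacna2d1 had 8.88 ± 0.26 and 8.61 ± 0.41. The T-type pores Cacna1h (8.57 ± 0.46) and Cacna1g (7.71 ± 0.46) were also above the median of all genes. Genes of the calcium store were brighter as a list, with a median of 8.88 over 16 genes. Pln, which restrains the store pump, ranked 22 of all genes, with 12.20 on its lowest array, a median of 12.49 and 12.60 on its highest. The pump Atp2a2 had 11.85 ± 0.18, the plasma membrane pump Atp2b4 had 11.20 ± 0.26 and the release channel Itpr1 had 11.01 ± 0.14. The ryanodine receptors were lower, with 8.03 ± 0.51 for Ryr2 and 6.70 ± 0.73 for Ryr3.

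In the list of TRP and mechanosensitive channels the polycystins Pkd2 (9.88 ± 0.05) and Pkd1 (9.46 ± 0.28) were the brightest, followed by Trpm7 (8.70 ± 0.12), and Trpc6, a channel linked to the myogenic response, had 7.19 ± 0.45. Clic4 (11.19 ± 0.06) and the scramblase Ano6 (10.41 ± 0.08) led the chloride and sodium channel list. Among the connexins, Gjb6 had 9.88 ± 1.15, Gja1 had 9.47 ± 1.15, Gja4 had 9.43 ± 0.39 and Gjb2 had 9.36 ± 0.71. Gja4, a connexin of arterial endothelium, thus varied less than the connexins around it.

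Receptors for vasoactive agents were mostly dim, with a few bright members in some lists and none in the brightest 25% among the 7 adrenoceptors and the prostanoid receptors. Over all 93 receptor genes the median was 7.32, with 31 in the brightest 25% and 29 in the lowest 25%, and 18 of those 31 were growth factor receptors. The serotonin receptor Htr1b was the brightest of the G-protein-coupled receptors listed, ranking 390 with 9.87 on its lowest array, a median of 10.67 and 10.90 on its highest. The ATP-gated channel P2rx1 ranked 610, with 9.62, 10.28 and 10.65. The endothelin receptor Ednra ranked 1126, with 9.20, 9.65 and 9.96. F26 was the lowest array for all 3, and the other 5 arrays lay within 0.68 log2 units for each.

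Npy1r, the receptor for the sympathetic cotransmitter neuropeptide Y, had 9.35 ± 0.51, and the histamine receptor Hrh2 had 8.83 ± 0.46. The nucleotide receptors P2ry2 and P2ry6 had 8.95 ± 0.35 and 8.22 ± 0.27. The Mas receptor for an angiotensin fragment (Mas1) had 8.78 ± 0.34, while the angiotensin receptor Agtr1b had 5.60 ± 0.20. The vasopressin receptor Avpr1a had 7.50 ± 0.48, the serotonin receptor Htr2a 7.65 ± 0.43 and the thromboxane receptor Tbxa2r 7.27 ± 0.28. All 7 adrenoceptors measured lay below the brightest 25%, and the lowest was Adra1b at 5.46 ± 0.31.

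Receptors for dilator peptides were intermediate. Ramp1 (9.19 ± 0.24) and Calcrl (8.21 ± 0.20), the partners that make the receptor for calcitonin gene-related peptide, were both above the median of all genes, and the natriuretic peptide receptors were Npr2 (8.15 ± 0.22), Npr3 (7.33 ± 0.82) and Npr1 (7.25 ± 0.58). Among lipid receptors, Lpar1 had 9.92 ± 0.71, S1pr1 had 9.70 ± 0.28 and S1pr3 had 9.15 ± 0.40, and the thrombin receptor F2r had 8.25 ± 0.51. The 25 growth factor receptors had a median of 9.42, led by Pdgfrb (11.13 ± 0.17), Fgfr1 (10.76 ± 0.12), Bmpr2 (10.71 ± 0.15) and Notch3 (10.60 ± 0.33), the receptor that maintains arterial smooth muscle. Of the steroid receptors, the glucocorticoid receptor Nr3c1 had 9.16 ± 0.14 and the mineralocorticoid receptor Nr3c2 had 8.51 ± 0.23.

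**Figure D2:**
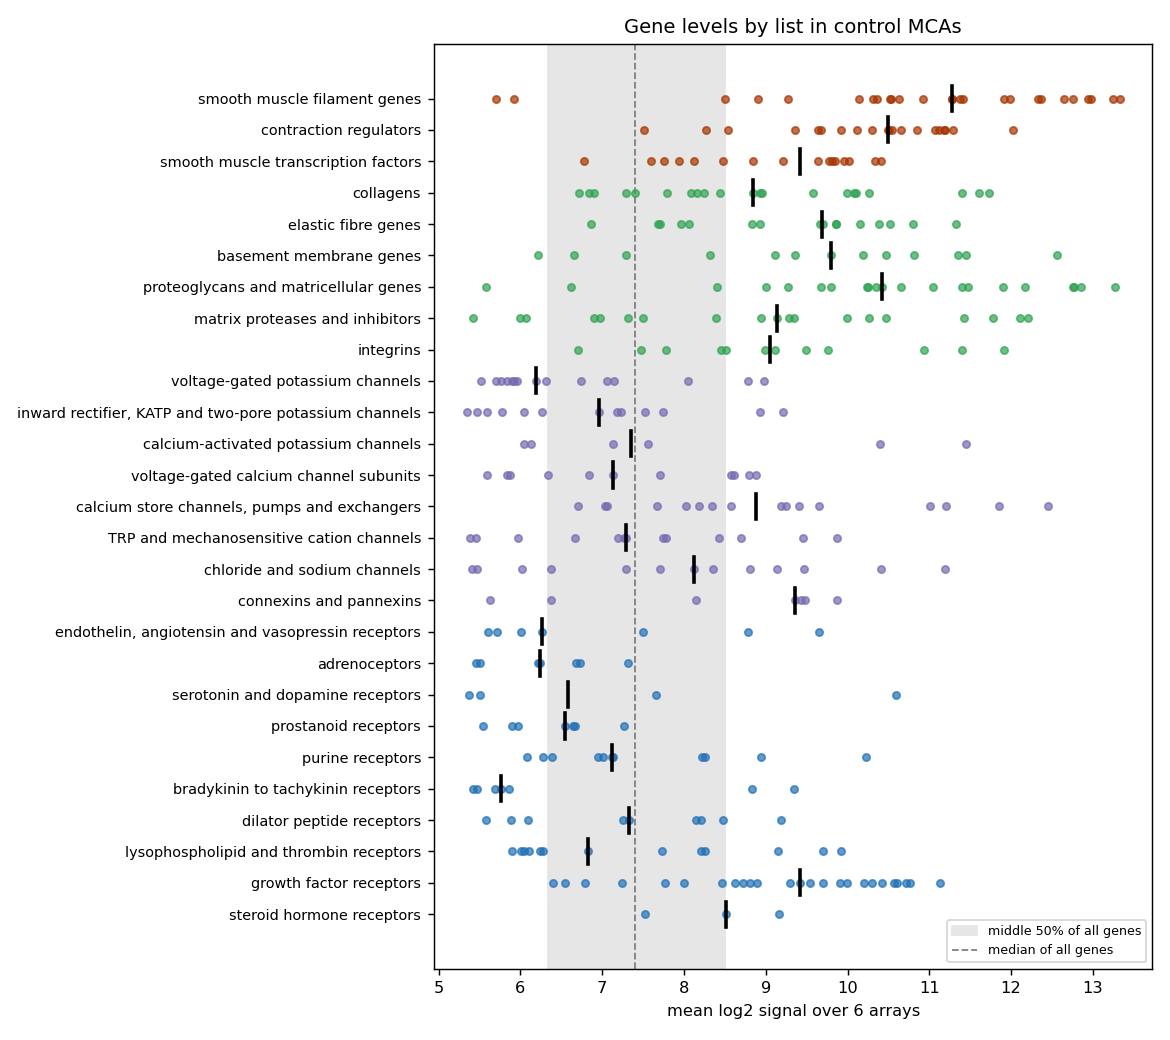
Mean log2 signal over the 6 control arrays of every listed gene (points), with each list's median (black tick), the median of all genes (dashed) and their middle 50% (grey). Contractile and matrix lists lie to the right of the grey band, with medians from 8.84 to 11.28. Among channel lists the connexins and pannexins (median 9.36) and the calcium store genes (median 8.88) do. Among receptor lists the growth factor receptors (median 9.42) and, just past the band's edge at 8.50, the 3 steroid hormone receptors (median 8.51) do.

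The tissue label was checked against markers. All 6 smooth muscle markers measured were in the brightest 10%, and 8 of 10 endothelial markers were in the brightest 25%. Vwf, the clotting factor stored in endothelium, had 11.10 ± 0.12, the tight junction gene Cldn5 had 10.64 ± 0.17, the angiopoietin receptor Tek 10.43 ± 0.15 and the nitric oxide synthase Nos3 9.56 ± 0.05. Fibroblast markers were also bright, with 8 of 9 in the brightest 25%. Markers from outside the wall were bright too. Of 7 leptomeninges markers, 6 were in the brightest 10%, with a median of 10.01 against 9.85 for the endothelial markers. All 3 red blood cell markers measured were in the brightest 25%. Neuron markers were low, with 6 of 7 in the lowest 25% and only Nefm, a filament of axons, above the median at 7.47 ± 0.54. The choroid plexus marker Ttr was low at 5.79 ± 0.34. Of 7 astrocyte markers, 4 were in the brightest 25% and the median was 9.17, while the defining genes Gfap and Aqp4 had 6.83 ± 0.53 and 6.14 ± 0.68.

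Of 102 microRNA precursor genes, 60 lay in the lowest 25% and 2 in the brightest 10%. Those 2 were Mir143 (rank 825) and Mir145 (rank 1086), which are known for their abundance in smooth muscle and share 1 primary transcript. The probe sets read precursor transcripts and not the mature microRNAs. Mir143 had 10.55, 10.37, 10.58, 9.12, 9.34 and 9.79 on F36, F21, F4, F16, F22 and F26. Mir145 had 10.31, 10.06, 10.35, 9.05, 9.45 and 8.89 in the same order. Both were thus higher on F36, F21 and F4 than on the other 3 arrays, with no overlap. The precursors of a second group, Mir23b, Mir27b and Mir24-1, divided the arrays in the same way at lower levels. Of all 102 precursors, 23 were lower on F16, F22 and F26 without overlap, against 12.7% of all genes. None were higher, against 14.9%. Mir27b had 8.81, 8.28, 8.55, 6.93, 7.00 and 8.15, Mir23b had 8.60, 7.92, 8.42, 6.87, 6.90 and 7.79, and Mir24-1 had 7.93, 7.73, 7.62, 7.12, 6.97 and 6.45. In RefSeq (GRCr8), Mir143 and Mir145 lie 1278 bases apart on chromosome 18, at chr18:57371349-57371453 and chr18:57369983-57370070, and Mir23b, Mir27b and Mir24-1 lie within 1 stretch of chromosome 17, separated by 142 and 410 bases, all on the minus strand. The mature sequences of these 2 clusters are shown because they are the precursors that were brightest or varied most, with the seed (bases 2 to 8) in capitals. The letters are those of RefSeq.
miR-143-3p: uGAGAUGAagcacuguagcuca
miR-145-5p: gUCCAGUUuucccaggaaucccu
miR-23b-3p: aUCACAUUgccagggauuacc
miR-27b-3p: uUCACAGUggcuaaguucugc
miR-24-3p: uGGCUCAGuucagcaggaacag
The 5 seeds differ, so the members of a cluster share a transcript and not a seed.

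Most genes varied little between control arteries. The median SD was 0.15 and the median range 0.41. A range of at least 1.00, a 2.0-fold difference between the highest and the lowest array, was found in 841 genes, which is 6.29% of all genes. An SD at least 2.0 times that of the 200 genes nearest in level was found in 1542 genes, which is 11.5%. The share with a range of at least 1.00 was 2.25% in the lowest 10% of genes by level and from 5.76% to 7.56% in the others, so wide spread was also found among bright genes. Housekeeping genes were the steadiest. None of 29 ribosomal protein, 21 oxidative phosphorylation and 11 glycolysis genes had a range of at least 1.00, and their median SDs were 0.096, 0.092 and 0.099. Rpl13a, a ribosomal protein gene, held between 11.81 and 11.84 on all 6 arrays. Among contractile genes 3 of 62 had so wide a range, against 15 of 102 matrix, 19 of 94 channel and 19 of 93 receptor genes.

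The spread had a leading pattern, which divided the arrays into F36, F21 and F4 on one side and F16, F22 and F26 on the other. The first principal component of the gene-centred values held 56.8% of the spread, with scores of -13.6, -16.8 and -24.7 for the first 3 arrays and 16.0, 16.9 and 22.2 for the others. The sample titles open with a number that is 2, 3 and 4 for the first 3 arrays and 13, 15 and 20 for the others. What this number stands for is stated neither in the labels nor in the methods, and it cannot be told apart from differences between the animals. The arrays are called earlier-numbered and later-numbered below. All 3 later-numbered arrays were above all 3 earlier-numbered arrays in 1994 genes (14.9% of all genes) and below them in 1700 genes (12.7%). With each array centred on its median, these counts were 1581 and 2561. Among the 841 genes of wide range the balance was different, with 502 higher and 95 lower on the later-numbered arrays. Within the later-numbered arrays alone 142 genes had a range of at least 1.00, and within the earlier-numbered arrays alone 94 genes. Each of these counts rests on only 3 arrays, and fewer arrays give smaller ranges by construction. They therefore do not show how many of the 841 genes owe their wide range to the division.

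Of the 30 genes of largest SD, 28 were higher on the later-numbered arrays. Nnat, which encodes the membrane proteolipid neuronatin, had the largest spread of all, with 9.73, 7.90, 6.62, 10.57, 11.04 and 11.95 on F36, F21, F4, F16, F22 and F26. The organic anion transporter Slc22a8 had 9.65, 8.03, 8.10, 11.32, 11.36 and 11.53. The dicarboxylate transporter Slc13a3 had 9.59, 8.15, 7.59, 10.99, 11.07 and 11.49. In each of these genes F36 lay between the other earlier-numbered arrays and the later-numbered ones. The cystine transporter Slc7a11 (SD 1.56), the inward rectifier Kcnj13 (SD 1.46), the cation channel Trpm3 (SD 1.42), the sulfate transporter Slc13a4 (SD 1.37) and the guidance cue Sema3a (SD 1.43) followed the same division. Solute carriers, a family picked out after the values were seen, had 56 of 258 members (21.7%) with a range of at least 1.00, against 6.29% of all genes. Of these 56, 45 were higher on the later-numbered arrays, against 59.7% of all genes of wide range.

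**Figure D3:**
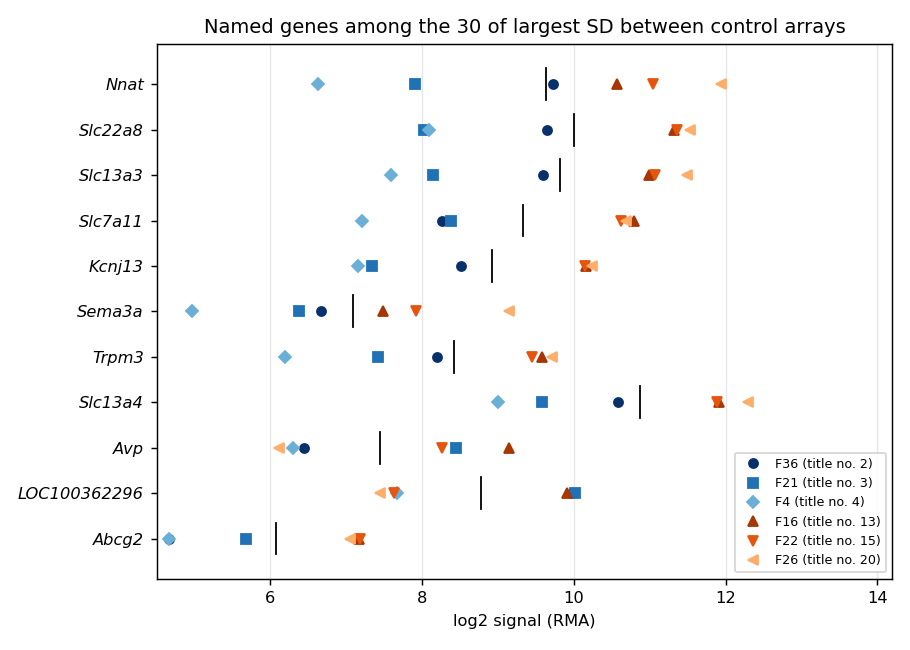
The 11 genes named here among the 30 of largest SD between the 6 control arrays, with the log2 signal of each array (symbols) and the mean (black tick). In 9 of them the orange symbols of F16, F22 and F26 lie to the right of all blue symbols, and the exceptions are Avp and LOC100362296.

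Markers of the leptomeninges followed this division. Of 7 markers, 6 were higher on all later-numbered arrays, against 14.9% of all genes, and 4 had a range of at least 1.00, against 6.29%. This list and those below were chosen with earlier results of these data known. Their counts therefore describe the division and do not test it. The GABA transporter Slc6a13 had 10.30, 9.68, 9.27, 11.17, 11.29 and 11.62 on F36, F21, F4, F16, F22 and F26. Aldh1a2, which makes retinoic acid in the meninges, had 9.34, 8.90, 9.20, 10.85, 10.85 and 10.93. Slc22a6, a neighbour of Slc22a8 on chromosome 1 in the deposited annotation, had 9.10, 8.35, 8.39, 10.52, 10.46 and 10.64. The mean deviation of the 7 markers from their own means was -0.32, -0.66 and -0.82 on the earlier-numbered arrays and 0.51, 0.48 and 0.81 on the later-numbered ones. The exception was Crabp2, a retinoic acid binding protein, with 9.79, 9.86, 9.46, 9.66, 9.64 and 10.44.

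Other genes of the vessel surface and its resident cells moved with them. Against 14.9% of all genes, 10 of 11 macrophage and microglia markers were higher on all later-numbered arrays, among them the growth factor receptor Csf1r (8.29 to 8.35 against 9.16 to 9.49) and the mannose receptor Mrc1 (7.20 to 7.48 against 8.62 to 8.84). The exception was Tmem119, a microglial gene, at 5.81 ± 0.25. Of 7 astrocyte markers 5 were higher, including the connexins Gja1 (8.05 to 8.93 against 10.18 to 10.98) and Gjb6 (8.37 to 9.48 against 10.74 to 10.99) and the glutamate transporter Slc1a3 (7.87 to 8.69 against 10.06 to 10.31). Gfap had 6.48, 6.97, 6.31, 7.05, 7.73 and 6.45, and Aqp4 had 5.80, 6.28, 5.41, 6.46, 7.26 and 5.60, so F26 was among the low arrays for these 2 genes. Among histocompatibility genes 10 of 22 were higher on the later-numbered arrays and none lower, with the invariant chain Cd74 at 9.90 to 10.29 against 10.75 to 11.13. The part of these markers in the spread of other genes was not tested.

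Smooth muscle genes ran the other way, by smaller amounts. Of 26 filament genes, 21 were lower on all later-numbered arrays, against 12.7% of all genes. Their median SD was 0.19, against 0.15 for all genes and 0.95 for the leptomeninges markers. The mean deviation of the 6 smooth muscle markers was 0.19, 0.14 and 0.22 on F36, F21 and F4 and -0.16, -0.13 and -0.26 on F16, F22 and F26. Lmod1 had 10.63, 10.55, 10.59, 10.01, 10.13 and 9.98 on these arrays. Basement membrane genes were lower in 8 of 13, collagens in 10 of 21 and contraction regulators in 12 of 20. Of 16 calcium store genes 7 were lower, with Ryr3 at 7.29 to 7.44 against 5.93 to 6.17. The fibroblast markers were divided, since 3 of 9 were lower and only Pdgfra was higher (10.11 to 10.25 against 10.87 to 11.13).

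Receptors and channels lay on both sides of the division. Higher on the later-numbered arrays were the prostaglandin receptor Ptgfr (5.14 to 5.95 against 7.29 to 7.82), Lpar1 (9.09 to 9.39 against 10.44 to 10.64), Npr3 (6.29 to 6.84 against 7.83 to 8.32) and Npr1 (6.57 to 6.82 against 7.64 to 7.90). Lower were Avpr1a (7.65 to 8.16 against 6.99 to 7.16), Htr2a (7.94 to 8.08 against 7.05 to 7.60), Hrh2 (9.13 to 9.25 against 8.08 to 8.67) and P2rx1 (10.48 to 10.65 against 9.62 to 10.09). Of 93 receptor genes, 17 were higher and 21 lower, and of 94 channel genes 18 were higher and 20 lower. Among all genes 14.9% were higher and 12.7% lower, so both shares were larger in these genes, the lower share by more. Among genes of the endothelial barrier, the efflux pump Abcg2 had 4.66, 5.68 and 4.66 against 7.17, 7.18 and 7.06, and the adhesion gene Cdh5 had 9.77 to 9.84 against 10.44 to 10.59. Vwf had 11.11 to 11.30 against 10.97 to 11.04.

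**Figure D4:**
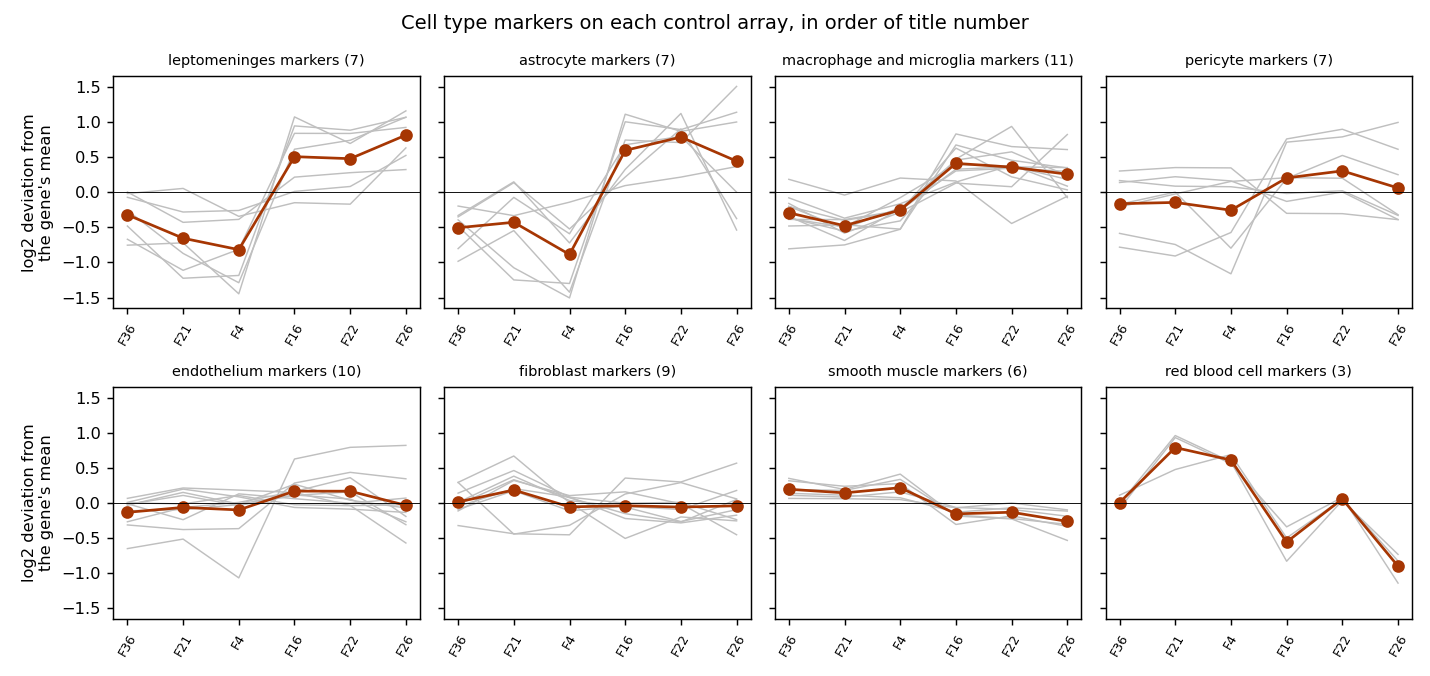
Deviation of each marker gene from its own mean (grey lines, log2) and the list's mean (orange) on the 6 control arrays, with the number of genes in brackets. The mean of the leptomeninges markers lies between -0.82 on F4 and 0.81 on F26, that of the smooth muscle markers between 0.22 on F4 and -0.26 on F26, and the red blood cell markers are highest on F21.

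The haemoglobin genes, which mark red blood cells, had an order of their own. Hbb had 9.45, 10.42, 10.05, 8.63, 9.50 and 8.73 on F36, F21, F4, F16, F22 and F26, and Hba-a2 had 8.63, 9.65, 9.28, 8.38, 8.80 and 7.58. All 3 haemoglobin genes measured in the red blood cell list had a range of at least 1.00, and F21 and F4 were the highest arrays for each. The neutrophil gene S100a9 was at 4.68 ± 0.23.

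The second principal component held 20.6% of the spread, with its highest scores on F16 (12.7), F22 (9.01) and F21 (7.70) and its lowest on F26 (-19.9) and F4 (-8.07), so it cut across the title numbers. The gene of largest weight in it was Avp, the precursor of vasopressin, followed by the clock gene Dbp. Genes of the circadian clock had 9 of the 13 measured among the 100 genes of largest weight, against none in the first component. Of the 13 clock genes, 9 had a range of at least 1.00, against 6.29% of all genes. Dbp, a transcription factor driven directly by the clock, had 10.44, 10.59, 8.74, 11.47, 11.39 and 9.59 on F36, F21, F4, F16, F22 and F26. Arntl, which encodes Bmal1, had 8.28, 7.95, 8.97, 7.00, 6.64 and 8.87. Dbp was thus highest on the arrays where Arntl was lowest, F16 and F22, and lowest on the arrays where Arntl was highest, F4 and F26.

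Several other clock genes sorted to one side or the other. Per2, a repressor of the loop, had 7.43, 7.79, 6.92, 8.37, 8.33 and 6.52, Tef, a relative of Dbp, had 8.01, 8.30, 7.23, 8.72, 8.87 and 7.71, and Nr1d1, the repressor of Arntl, had 10.78, 10.90, 9.73, 10.89, 11.01 and 10.08. These followed Dbp. Npas2, a partner of Bmal1, had 7.15, 7.22, 7.46, 6.64, 6.53 and 8.35 and followed Arntl. Per1 had 8.46, 8.95, 8.82, 8.72, 9.26 and 7.29, so it was low on F26 but not on F4. Clock (9.80 ± 0.20) and Cry2 (9.04 ± 0.22) varied less than these genes, but more than the median SD of 0.15 over all genes. Cry2 was lowest on F26 (8.61). The difference held within each set of title numbers, since F4 differed from F36 and F21, and F26 from F16 and F22. The rats lived in a fixed cycle of light and dark, and the hour at which each artery was taken was not stated.

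Promoters of 12 of the 13 clock genes were in the RefSeq set (GRCr8, 250 bases before to 50 after the start), and 2 short motifs were searched in them because these genes moved together. The E-box CACGTG, which Bmal1 and Clock bind and which reads the same on both strands, was found in 3 of the 12, Tef, Bhlhe40 and Bhlhe41. It was also found in 6.65% of 27457 promoters and in 9.32% of the 9770 promoters of the genes analysed. The half-site AGGTCA, which receptors such as the Nr1d1 product bind, was searched on both strands and was found in 1 of the 12, Arntl. It was also found in 15.7% of all promoters and in 12.0% of those of the genes analysed. The 2 motifs do not overlap in letters. A match describes the letters of this window and does not show a bound site. The promoters of Tef, Bhlhe40 (a repressor of the loop, 9.28 ± 0.41) and Arntl are shown with the motif in capitals, chosen because they hold a match. Dbp, Per1, Per2, Per3 and Nr1d1 held no E-box in this window, and Npas2 held no half-site. The promoters shown lie at chr7:115206577-115206876, chr4:143174200-143174499 and chr1:176766078-176766377, all on the plus strand. The motifs begin 198, 220 and 15 bases before the start.
Tef: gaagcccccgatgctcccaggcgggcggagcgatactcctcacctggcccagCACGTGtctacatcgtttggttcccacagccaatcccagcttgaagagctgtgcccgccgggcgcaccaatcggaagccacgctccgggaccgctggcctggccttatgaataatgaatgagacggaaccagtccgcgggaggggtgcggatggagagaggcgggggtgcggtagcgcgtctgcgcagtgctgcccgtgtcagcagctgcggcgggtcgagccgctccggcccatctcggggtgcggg
Bhlhe40: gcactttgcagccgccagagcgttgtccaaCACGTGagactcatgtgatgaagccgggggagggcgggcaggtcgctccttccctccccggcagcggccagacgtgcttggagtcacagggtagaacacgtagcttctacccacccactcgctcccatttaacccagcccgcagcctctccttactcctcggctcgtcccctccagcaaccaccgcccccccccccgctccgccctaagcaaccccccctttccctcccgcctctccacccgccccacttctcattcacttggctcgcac
Arntl: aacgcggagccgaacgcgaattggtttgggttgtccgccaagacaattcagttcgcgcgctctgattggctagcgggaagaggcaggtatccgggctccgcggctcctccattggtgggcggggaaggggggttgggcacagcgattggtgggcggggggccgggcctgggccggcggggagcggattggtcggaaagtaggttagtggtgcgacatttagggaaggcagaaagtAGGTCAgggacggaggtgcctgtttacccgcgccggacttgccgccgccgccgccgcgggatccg

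**Figure D5:**
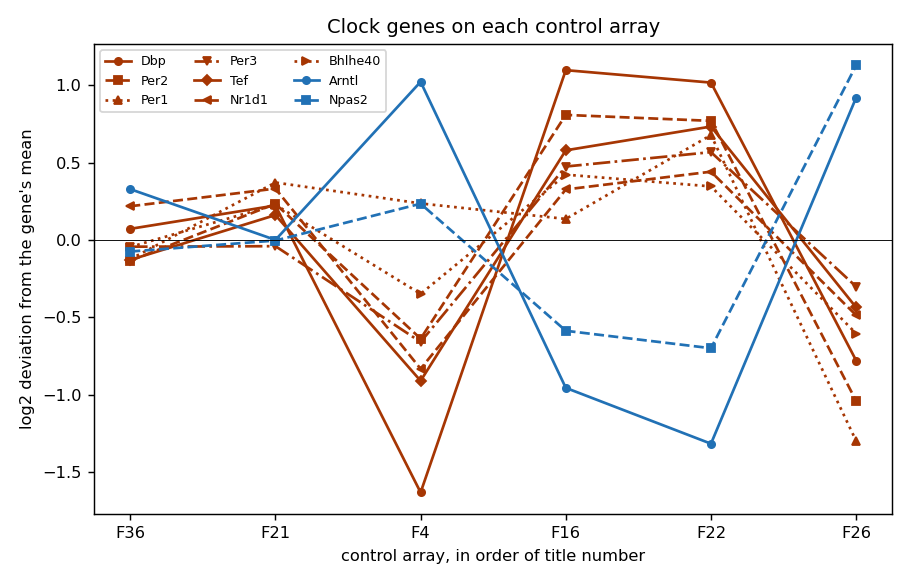
Deviation of 9 clock genes from their own means (log2) on the 6 control arrays, with Dbp, the genes that followed it and Per1 in orange and Arntl and Npas2 in blue. The orange genes are above their means on F16 and F22 and, except Per1, below them on F4, and the blue genes are high on F26.

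Some genes fell into a distinct upper and lower set of arrays. A gap of at least 1.00 between an upper and a lower set of at least 2 arrays, wider than 2.0 times the range within either set, was found in 46 genes, and in 42 of them the sets were the later- and earlier-numbered arrays. This rule was chosen after the values were seen, and the other 4 genes were LOC100362296, Avp, Kcnab1 and Pmel. LOC100362296, annotated as like the calcium-binding protein S100-A11, had 9.98, 10.02, 7.67, 9.91, 7.63 and 7.44 on F36, F21, F4, F16, F22 and F26, a gap of 2.24. Its 3 high arrays spanned 0.11 and its 3 low arrays 0.23. Avp had 6.44, 8.45, 6.30, 9.15, 8.26 and 6.11. Kcnab1 had 8.62, 10.29, 8.45, 9.91, 8.58 and 8.04, so F21 and F16 stood above the rest. These 3 genes were among the 100 of largest weight in the second component. Pmel, a melanosome protein, had 5.54, 5.50, 5.47, 5.91, 7.25 and 6.95, so it was higher on all later-numbered arrays, with F22 and F26 above F16.

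Of 16 interferon response genes, 6 were higher on all later-numbered arrays, against 14.9% of all genes, and none lower, and 4 had a range of at least 1.00, against 6.29% of all genes. Mx2, an antiviral GTPase, had 7.46, 7.17, 7.64, 9.29, 7.81 and 8.04, with F16 the highest, and Mx1 had 6.23, 5.80, 6.30, 7.13, 6.17 and 6.34, with F16 highest again. Ifit1 had 7.39, 6.05, 4.20, 7.26, 6.47 and 6.61, with F4 the lowest. Among immediate early genes, Nr4a1 had 7.68, 8.27, 9.51, 7.81, 7.66 and 7.64, and F4 was also the highest array for Atf3 (7.59) and Nr4a3 (7.19). Fos had 6.95 ± 0.27 and Egr1 had 8.42 ± 0.27. Of 13 glucocorticoid response genes 5 had a range of at least 1.00, against the same 6.29%, including Sgk1 (8.57, 8.09, 7.65, 9.75, 9.80 and 9.71) and Fkbp5 (7.45, 7.55, 6.86, 7.90, 8.54 and 8.37), both higher on the later-numbered arrays.

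Single arrays stood apart in a minority of genes. By Dixon's ratio, which divides the gap of the most distant value by the whole range, 909 genes (6.8%) had 1 array apart from the other 5. F26 was the low array in 334 of them and the high array in 115, F4 in 87 and 69, and each other array in fewer than 60 on either side. Among the 841 genes of wide range, F26 was the highest array in 337 and F4 the lowest in 407. F26 and F4 were also the pair of lowest correlation, with r = 0.954.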

How the data were processed

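RNA of 6 control MCAs was measured on 1 Affymetrix rat gene 2.0 ST array each. The authors made the deposited log2 values by robust multi-array averaging with quantile normalization in Affymetrix Expression Console 1.1.2. They left out probe sets near the negative controls, a filter the paper describes over total samples. Arrays of operated rats thus also bore on which genes were kept and ranked. Quantile normalization gives the arrays near-equal distributions, so a shift shared by most genes would not be visible. The 2 deposited tables used here hold 13845 and 13810 probe sets, 13988 in all, with identical control values. The authors' comparison columns (fold changes, p-values, scores) were not used.

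Probe sets with several symbols (331) were left out. A spreadsheet had turned 22 symbols into dates. Accessions restored 18 of them, and the other 4 were left out. The brightest of a gene's probe sets stood for it, giving 13368 genes. Mean, SD, range, rank and principal components were computed with Python 3.11.15, numpy 2.4.6 and pandas 2.3.3, and cyclic loess with limma 3.58.1 in R 4.3.3. With 1 group no test between groups was made. Arrays have no depth, and their number limits the precision. The spread calls were tested on simulated data.

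Named genes were the 25 brightest, the 4 brightest, the lowest and the 2 most variable of each of 57 lists, the 30 of largest SD, the 10 of smallest SD above the median level, and Actb and Gapdh. Those named were taken mostly from this rule, and others (list members and precursors of the microRNA clusters) were chosen after their values were seen. The control group and the lists were chosen with earlier results of these data known. Alternatives were median centring, cyclic loess, mean of probe sets, the upper 50% of genes, stricter thresholds and each array left out. The counts by title number and their alternatives were added after the data were seen. Sequences and gene positions are from RefSeq (GRCr8). The genome build of the deposited annotation was not stated. Some genes of the lists are not reported here by name.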

Additional observations from a re-analysis of the deposited data

Results flagged for a closer look

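Dixon's ratio was taken for 175 genes named in the report, and in 13 of them 1 control array stood apart from the other 5, near the 6.8% of all genes for which this held. Chance alone flags about 1 in 20 groups. F26 was the low array for the bone morphogenetic protein receptor Bmpr2 (10.41), the clock gene Cry2 (8.61), the serotonin receptor Htr1b (9.87), Igfbp7 (13.09), the channel genes Kcnmb1 (10.76) and Kcnn4 (6.83), the growth factor receptor Pdgfrb (10.80) and Vim (13.25). F26 was the high array for the adrenoceptor Adra1b (6.07). F4 was the high array for Nos3 (9.66) and the immediate early gene Nr4a1 (9.51). F21 was the high array for Loxl1 (10.62), and F36 for Plat (11.88). For Vim, Nos3 and Plat the whole range over the 6 arrays was small, with SDs of 0.04, 0.05 and 0.05.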

How the results depend on the processing

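Restricted to the upper 50% of genes by level, 434 genes had a range of at least 1.00, 941 had an SD at least 2.0 times that of similar genes, 1096 and 1109 were higher and lower on all later-numbered arrays, 6 macrophage and microglia markers were higher, the first component held 64.4% of the spread, and the median levels of receptor, channel and matrix genes were 9.15, 8.88 and 9.93. Only 50% of the genes were counted in that setting, so its counts are lower and its list medians higher by construction. Over all genes, 274 were called at a range of 1.5, and 569 at an SD ratio of 3. Centring each array on its median gave 2561 genes lower on the later-numbered arrays.

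Leaving out each array in turn gave 593 to 803 genes of wide range, 1566 to 1678 of high SD ratio, 2308 to 3100 genes higher and 2260 to 2667 lower on the later-numbered arrays (the highest of both without F26, and fewer arrays overlap less by construction), 6 to 9 clock genes, 4 leptomeninges markers and 0 to 1 filament gene of wide range. Higher on the later-numbered arrays were 6 leptomeninges and 10 macrophage markers each time, and 21 to 22 filament genes were lower (5 to 6, 10 and 19 to 22 under the other scalings). The first component held 55.9% to 65.8% and the second 14.3% to 25.1%. Of the 25 brightest genes 24 to 25 were shared, and of the 30 of largest SD 24 to 29. Median levels were 7.25 to 7.38 for receptors, 7.39 to 7.47 for channels, 9.46 to 9.61 for matrix and 10.31 to 10.42 for contractile genes.

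Levels of the named genes stayed within 1 SD of the reported value in 1718 recalculations. The exceptions were Rtn4 (11.19) and Rps29 (13.03) as means of their probe sets. Ranking by median absolute deviation shared 20 of the 30 genes of largest SD. No paired analysis was possible because only 1 group was used. Arrays have no read depth, and 6 arrays limit the precision of each SD.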
